A study of Rattus norvegicus with 32 samples.

Results

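The 30-day change in mucosal gene expression was compared between obese and lean Zucker rats. For each probe set the change in ZO rats (placebo minus baseline) was taken, and the change in ZL rats (placebo minus baseline) was subtracted from it. The result is called the difference below, on the log2 scale, and a positive value means that ZO rats moved further up, or less far down, than ZL rats. It used 16 of the 32 rats of the series, namely 4 ZL rats at baseline, 4 ZL rats on placebo, 4 ZO rats at baseline and 4 ZO rats on placebo, chosen by the group in the sample labels. Of 29214 probe sets, 17245 stood for a gene each, taken as the probe set with the highest mean over all arrays where a gene had several.

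ZO rats are Zucker-Lepr fa/fa males, which lack a working leptin receptor, and ZL rats are Zucker lean Lepr +/fa males, which also carry 1 fa allele. The labels name the tissue only as intestinal mucosa and give the age of all rats as 6 weeks, including those sampled 30 days later, so the times rest on the group names and the study's design. Baseline rats were killed as a reference without treatment, and the other rats took a daily oral placebo of milk powder, sucrose and vitamin C for 30 days, so growth and placebo cannot be told apart. Each change compares separate rats, 1 array per rat. Another 16 ZO rats given a probiotic for 30 days, by the study's design a single strain or a mixture of strains, did not enter the difference itself. They formed the 5th group of the model, where they take part in the estimate of the spread behind each p and interval, and their values are shown as those of further ZO rats of the later time. With these bulk arrays, fewer cells of a type and less RNA per cell cannot be told apart.

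Leptin, made by fat cells, signals the size of fat stores through its receptor, and Zucker fa/fa rats overeat and become obese after weaning. The small intestine takes up dietary fat, sugar and amino acids through its enterocytes, renews its epithelium by constant cell division in the crypts, and oxidises part of the fatty acids it meets in mitochondria and peroxisomes. Genes of fatty acid oxidation are regulated by PPAR receptors, which bind fatty acids and act as transcription factors.

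Array medians lay between 4.788 and 4.970, and the lowest Pearson correlation between arrays, taken across probe sets, was 0.9785. Markers of absorptive epithelium were high in all 16 rats. The mean level of 9 enterocyte markers lay between 11.66 and 12.41 in every rat, with *Vil1*, an actin-bundling protein of microvilli, at a mean of 12.14 in ZO baseline rats and 12.25 in ZO placebo rats. The array of ZL placebo rat C13 stood apart in genes that vary along the gut. The ileal bile acid-binding protein gene *Fabp6* was at 8.71 in C13 and between 13.11 and 13.40 in the other 15 rats, and the hormone gene *Pyy* was at 5.17 in C13.

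Few single transcripts passed the test for the difference. In limma, with 1 model of 5 groups and Benjamini-Hochberg adjusted p across the whole array, 1 of 29214 probe sets was higher (0.00342%) and 0 were lower at a threshold of 0.05. Of the 17245 genes, 0 passed (0%), and the smallest adjusted p of a gene was 0.0605. With p adjusted over the 17245 genes alone, 4 passed, 1 higher (*Hsd3b2*) and 3 lower (*Bco2*, *Ndrg3* and *Ramac*). At an unadjusted p under 0.05, 442 genes (2.56%) were higher and 1334 (7.74%) lower, a split of 24.9% higher that became 40.2% (592 and 879 genes) after quantile normalization of the deposited values. Ordinary regression on the 16 arrays without moderation also gave 1 probe set after adjustment. The median half-width of the 95% interval of a difference was 0.328, or 1.26-fold, and the median difference over all genes was -0.03, with quartiles of -0.18 and 0.09.

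The changes within each genotype are the parts of the difference. In ZO rats 134 genes rose (0.777%) and 168 fell (0.974%) over 30 days, and in ZL rats 141 rose (0.818%) and 38 fell (0.22%). Read across the genotypes, 0 genes differed between ZO and ZL rats at baseline by limma, with 1627 higher (9.43%) and 665 lower (3.86%) in ZO rats at an unadjusted p under 0.05, while on placebo 119 genes were higher in ZO rats (0.69%) and 117 lower (0.678%). The ZL count rested on single rats and on the model. It was 266 over all probe sets, 1 in a model of only the 16 arrays, 66 after quantile normalization, 85 with arrays centred on their median, 32 without ZL baseline rat C1 and 1281 without ZL baseline rat C4. The ZO count was 398, and 149 in the model of 16 arrays.

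The probe set that passed was 10817759, unnamed here because the gene table used does not pair it with a symbol. In ZO placebo rats it was at 11.55 in Z11, 12.10 in Z13, 12.05 in Z15 and 11.82 in Z16. In ZO baseline rats it was at 7.90 in Z1, 7.40 in Z2, 8.10 in Z3 and 7.81 in Z4. In ZL rats it was at 7.002, 7.29, 7.99 and 7.86 at baseline (C1, C2, C3 and C4) and at 7.10, 7.83, 8.18 and 7.80 on placebo (C11, C13, C15 and C16). All 4 ZO placebo rats lay far above the other 12, whose 3 groups overlapped one another. The difference was 3.89 (95% interval 3.16 to 4.62), 14.8-fold, with adjusted p = 1.81e-07 (limma). The change was 4.08 in ZO rats and 0.19 in ZL rats. All 16 ZO probiotic rats lay above the 12 rats too, between 10.92 and 12.26. Within the first 16 samples deposited, which hold 2 rats of each of the 4 groups, the difference was 3.66 with adjusted p = 0.0525.

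**Figure D1:**
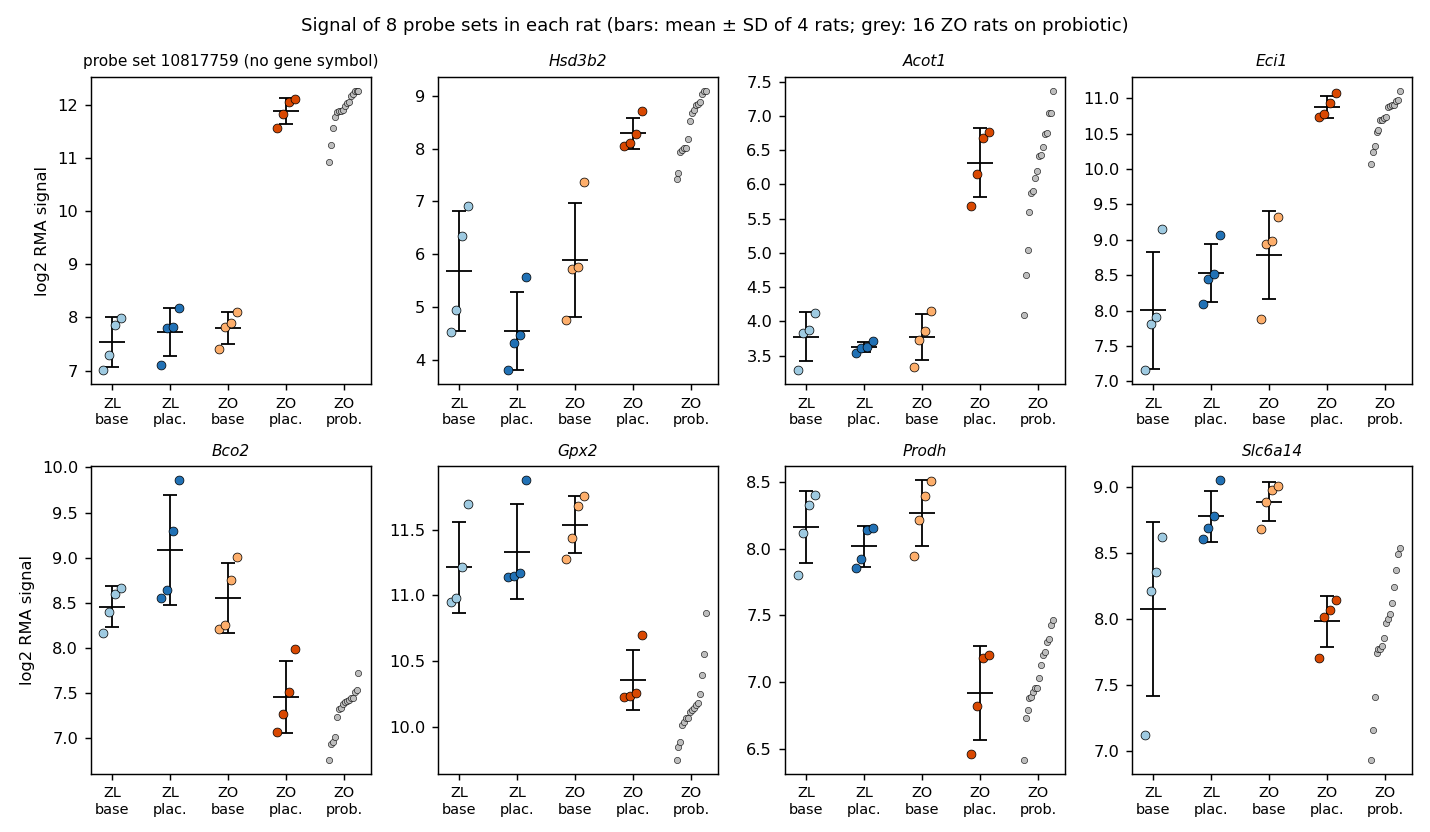
Log2 RMA signal (vertical axes, each with its own range) of 8 probe sets in every rat, by group on the horizontal axis. Coloured points are single rats, bars give the mean ± SD of 4 rats, and grey points are the 16 ZO rats on a probiotic. In the panel of probe set 10817759, all 4 ZO placebo rats lie between 11.55 and 12.10 and the 12 rats of the other coloured groups between 7.002 and 8.18.

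Among genes, those 10 on each side with the smallest p are given, none of which passed after adjustment. The genes with the larger positive differences include enzymes that act on steroids and fatty acids. *Hsd3b2*, a 3-beta-hydroxysteroid dehydrogenase, was at 8.05 in Z11, 8.28 in Z13, 8.71 in Z15 and 8.11 in Z16 among ZO placebo rats and at 5.76, 4.76, 7.36 and 5.72 in ZO baseline rats Z1 to Z4. In ZL rats it was at 6.34, 4.54, 4.94 and 6.91 at baseline (C1 to C4) and at 4.47, 3.81, 5.57 and 4.33 on placebo (C11, C13, C15 and C16). The ZO placebo rats lay above all others, and the ZL groups overlapped. *Hsd3b2* rose in ZO rats by 2.39 (adjusted p = 0.00667) and its change in ZL rats was -1.14 (adjusted p = 0.222), a difference of 3.52 (95% interval 2.14 to 4.90, adjusted p = 0.0605, limma). It passed with p adjusted over 1 probe set per gene (0.0468) and without C2 (0.0232), C15 (0.0345) or Z3 (0.0103). Over 31 alternatives of processing and samples it passed in 5, and adjusted p was up to 0.526 in the others.

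*Acot1*, a thioesterase that frees fatty acids from acyl-CoA, was at 5.69 in Z11, 6.68 in Z13, 6.76 in Z15 and 6.15 in Z16 among ZO placebo rats. The other 12 rats lay between 3.28 (C1) and 4.15 (Z1), with no group apart from another. The difference was 2.71 (95% interval 1.33 to 4.08), 6.52-fold, with adjusted p = 0.194 (limma). It passed in 1 of 31 alternatives, the model of only the 16 arrays (adjusted p = 0.00624, limma), and adjusted p was up to 0.46 in the others. *Chrna2*, a subunit of nicotinic acetylcholine receptors, was at 6.70, 6.596, 6.73 and 5.75 in ZO placebo rats Z11, Z13, Z15 and Z16. In the other 12 rats it lay between 3.70 (C13) and 4.78 (Z3), and its difference was 2.10 (95% interval 1.20 to 3.004, adjusted p = 0.115).

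*Ech1*, an isomerase of fatty acid oxidation, was at 11.07, 11.25, 11.22 and 11.26 in the ZO placebo rats and between 9.53 (C1) and 10.56 (Z3) in the other 12. Its difference was 0.87 (95% interval 0.45 to 1.29, adjusted p = 0.18). *Acad11*, an acyl-CoA dehydrogenase, was at 5.35, 5.17, 5.40 and 5.27 in the ZO placebo rats and between 4.70 and 5.04 in the others, a difference of 0.59 (95% interval 0.31 to 0.87). *Miox*, the oxygenase that opens the inositol ring, had a difference of 0.92 (95% interval 0.47 to 1.37). For all 3 genes the ZO placebo rats stood above the other 12 rats. The last 4 genes of the higher side were *Rnf227*, *Cib4*, *Ube2e2* and *Or2z2*, with differences from 0.43 to 0.59, and in these the ZO placebo rats overlapped the others. *Cib4* and *Or2z2* fell in ZL rats by 0.44 and 0.36 (adjusted p = 0.00335 and 0.0203) with changes of 0.00 and 0.07 in ZO rats. Another probe set of *Ube2e2*, a ubiquitin-conjugating enzyme, had the opposite sign, -0.38. *Rnf227* passed in 1 of 30 alternatives, without Z11 (adjusted p = 0.0311).

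The 10 genes of the lower side began with *Bco2*. *Bco2*, the mitochondrial enzyme that cleaves carotenoids, was at 7.99 in Z11, 7.27 in Z13, 7.07 in Z15 and 7.52 in Z16 among ZO placebo rats and at 8.26, 9.003, 8.75 and 8.21 in ZO baseline rats Z1 to Z4. The ZL values were 8.60, 8.40, 8.17 and 8.67 at baseline and 8.64, 9.86, 8.56 and 9.29 on placebo, in the order of rats given above. The ZO placebo rats lay below all others, and the highest value was that of C13. The difference was -1.73 (95% interval -2.39 to -1.06, adjusted p = 0.0605), made of a fall by 1.10 in ZO rats (adjusted p = 0.0101) and a change of 0.63 in ZL rats (adjusted p = 0.164). It passed with p adjusted over 1 probe set per gene (0.0468) and without C15 (0.0345) or Z11 (0.0311). Over 31 alternatives it passed in 4, and adjusted p was up to 0.525 in the others. Another, dimmer probe set of *Bco2* had a difference of -0.44.

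*Gpx2*, a glutathione peroxidase of the gut epithelium, was at 10.70, 10.26, 10.22 and 10.23 in ZO placebo rats Z11, Z13, Z15 and Z16 and between 10.95 (C4) and 11.88 (C16) in the other 12. *Gpx2* fell by 1.19 in ZO rats (adjusted p = 0.00107) and its change in ZL rats was 0.12, a difference of -1.31 (95% interval -1.86 to -0.75, adjusted p = 0.115). *Prodh*, which starts the breakdown of proline, was at 7.18, 6.82, 6.46 and 7.20 in the ZO placebo rats and between 7.80 (C3) and 8.51 (Z2) in the others. Its difference was -1.21 (95% interval -1.74 to -0.67, adjusted p = 0.128). *Gstt3*, a glutathione transferase, was at 7.66, 7.61, 7.68 and 7.43 in the ZO placebo rats and between 7.93 and 8.96 in the others. Its difference of -1.25 passed in 1 of 31 alternatives, without C15 (adjusted p = 0.048), and adjusted p was up to 0.442 in the others. In these 3 genes the ZO placebo rats lay below every other rat.

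*Il18*, a cytokine made by epithelium and phagocytes, was at 6.46 in Z11, 5.44 in Z13, 5.43 in Z15 and 5.78 in Z16. The other 12 rats lay between 6.45 (C3) and 7.57 (Z3), so that only Z11 reached the lowest of them. *Il18* fell by 1.39 in ZO rats (adjusted p = 0.00171) and its change in ZL rats was 0.11, a difference of -1.50 (95% interval -2.19 to -0.82, adjusted p = 0.142), and it passed without Z11 (0.046). *Ndrg3* (-0.92), *Ldhd*, a mitochondrial lactate dehydrogenase for D-lactate (-0.98), *Atg4c*, a protease of autophagy (-0.74), *Ramac*, a partner of the mRNA cap methyltransferase (-0.54), and *Pde12*, a mitochondrial phosphodiesterase (-0.44), completed the lower side. Of these, *Ramac* and *Atg4c* rose in ZL rats, by 0.38 and 0.64 (adjusted p = 0.0104 and 0.00543), with changes of -0.15 and -0.10 in ZO rats, whose 4 values overlapped those of the other rats. *Ramac* and *Ndrg3* passed with p adjusted over 1 probe set per gene (0.0468 each), and each also passed without C2 (0.0161 and 0.0411). *Ramac* further passed without Z11 (0.046), *Ndrg3* without C15 (0.0365) or Z1 (0.0197), *Pde12* without C15 (0.048) and *Atg4c* without C4 (0.0216). Of 31 alternatives, *Ndrg3* passed in 5, *Ramac* in 4, and *Il18*, *Pde12* and *Atg4c* in 1 each. In the others adjusted p was up to 0.469 for *Ndrg3*, 0.55 for *Il18* and 0.535 for *Atg4c*.

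The 20 genes thus held several kinds of pattern. Among the 10 with a positive difference, 6 rose in ZO rats, 2 fell in ZL rats and 2 passed in neither genotype. The 2 that fell in ZL rats, *Cib4* and *Or2z2*, had low signals near the floor of the arrays. *Rnf227* was as low, between 2.79 and 3.47 in all 16 rats of the comparison. So was *Miox* in the 12 rats outside the ZO placebo group, between 3.02 and 3.57. Among the 10 with a negative difference, 6 fell in ZO rats, 2 rose in ZL rats and 2 passed in neither. The signs of the changes in the genotypes were opposite for 9 of the 10 in each direction. The choice of genes by a small p of the difference favours opposite signs, and the count takes in very small changes. The ZO placebo rats lay above the other 12 rats for 6 of the 10 positive ones, against 0.951% of all genes, and below them for 4 of the 10 negative ones, against 0.504%, but the small p that chose these genes uses the same values. In the ZO probiotic rats, which the difference did not use, all 16 lay above the 12 rats of the other groups for 4 of the 10 (0.296% of all genes) and below them for 5 of the 10 (0.11%). This count is not independent of the choice of genes. The values of the 12 rats helped to choose them, and the probiotic arrays enter the spread behind p.

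**Figure D2:**
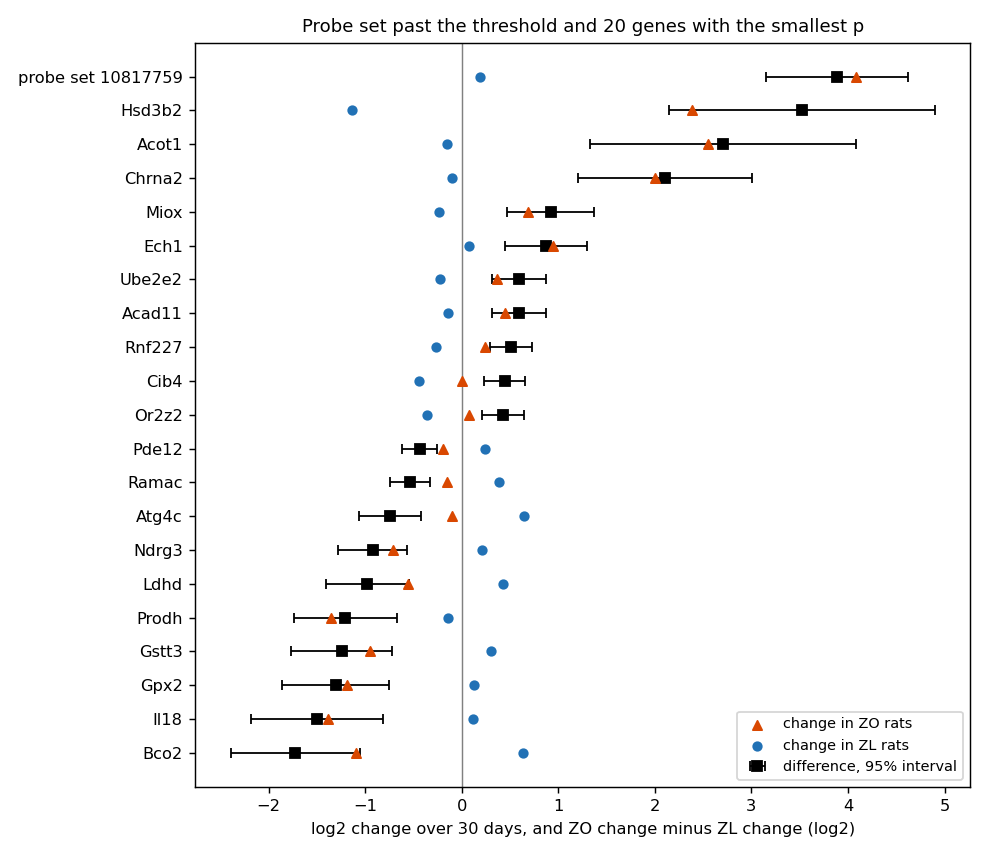
The difference with its 95% interval (black squares), the change in ZO rats (orange triangles) and the change in ZL rats (blue circles), all on the log2 scale of the horizontal axis, for probe set 10817759 and the 20 genes. All 21 were chosen by a small p for this same difference, so their intervals lie on 1 side of 0 by that choice. The interval runs from 3.16 to 4.62 for the probe set and from -2.39 to -1.06 for *Bco2*, and the ZL circle of *Hsd3b2* lies at -1.14.

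Genes of peroxisomal fatty acid oxidation, which shortens very long acyl chains, leaned towards a positive difference. Of 10 measured members, 0 passed after adjustment, 6 had an unadjusted p under 0.05 with a positive sign (2.56% of all genes) and 0 with a negative one (7.74%), and the median difference was 0.50 against -0.03 for all genes. *Pex11a*, which drives the division of peroxisomes, was at 9.41, 9.62, 9.85 and 9.59 in ZO placebo rats Z11, Z13, Z15 and Z16 and between 7.49 (C13) and 9.09 (Z3) in the others. Its difference was 1.24 (95% interval 0.57 to 1.92, adjusted p = 0.239). *Ehhadh*, the bifunctional enzyme, had a difference of 0.86 and the transporter of acyl-CoA into peroxisomes *Abcd3* one of 0.58. Within genotypes, 7 of the 10 rose in ZO rats (0.777% of all genes) and 1, *Amacr*, rose in ZL rats, by 0.96 (0.818%). The ZO placebo rats lay above the other 12 for 6 of the 10, against 0.951% of all genes.

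Mitochondrial oxidation genes were more uneven. Of 18 measured members, 0 passed, 6 were positive and 1 negative at an unadjusted p under 0.05 (2.56% and 7.74% of all genes), and 14 were above 0 (43.2% of all genes). The median difference was 0.28, made of a median change of 0.55 in ZO rats and 0.33 in ZL rats, and 9 members rose in ZO rats (0.777% of all genes) and 0 in ZL rats (0.818%). *Eci1*, an isomerase needed for unsaturated fatty acids, was at 10.77, 10.94, 11.07 and 10.74 in ZO placebo rats Z11, Z13, Z15 and Z16, at 8.95, 7.89, 9.32 and 8.98 in ZO baseline rats, and between 7.16 (C1) and 9.15 (C4) in ZL rats. Its difference was 1.57 (95% interval 0.73 to 2.41, adjusted p = 0.215). *Decr1*, the reductase for unsaturated acyl-CoA, had 0.97, the carnitine carrier *Slc25a20* 0.60 and the dehydrogenase *Acadl* 0.45. At the other end, the thiolase *Acaa2* had changes of 0.65 in ZO and 0.58 in ZL rats, a difference of 0.06, and the hydratase *Echs1* had changes of 0.05 and 0.47, a difference of -0.42. The ZO placebo rats lay above the other 12 for 11 of the 18, *Acaa2* among them, against 0.951% of all genes. The genotype gap of the list was already 0.37 at baseline, as a median, and 0.70 on placebo, and 12 members were higher in ZO rats on placebo (0.69% of all genes).

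The values of both lists varied with single rats and between the first and the last 16 samples deposited, each with 2 rats per group. The median of the mitochondrial list was 0.47 without ZL baseline rat C1 and 0.14 without ZL baseline rat C4, and its count of 6 became 10 without C1 and 2 without C4 or ZO baseline rat Z2. Without C13 the ZO placebo rats stood above the others for 15 of the 18. In the first and the last 16 samples the median of the mitochondrial list was -0.03 and 0.62, and that of the peroxisomal list 0.33 and 0.76. At an unadjusted p under 0.05, the first 16 samples gave 0 positive and 2 negative mitochondrial members, and 1 positive and 1 negative peroxisomal member. The last 16 samples gave 9 and 0 mitochondrial and 7 and 0 peroxisomal members. The peroxisomal median stayed between 0.43 and 0.59 when any of the 16 rats was left out.

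Other targets of PPAR receptors leaned the same way. Of 17 measured, 15 were above 0 (43.2% of all genes), with a median of 0.28, and 4 were positive at an unadjusted p under 0.05 (2.56% of all genes). In the first 16 samples deposited the median was 0.14, with 0 positive and 1 negative at that p. Without C3 the median was 0.18 and 2 were positive at that p. The 4 over all 16 rats were *Angptl4*, an inhibitor of lipoprotein lipase (1.41), *Plin2*, a coat protein of lipid droplets (1.17), the pantetheinase *Vnn1* (0.84) and *Fabp1*, a fatty acid-binding protein (0.18). *Slc27a2*, a fatty acid transporter, had 1.46 (95% interval -0.20 to 3.13), with changes of 3.41 in ZO and 1.95 in ZL rats. Among 8 thioesterases, only *Acot1* was positive at an unadjusted p under 0.05, and 1 other member was negative at that p (2.56% and 7.74% of all genes). *Acot2*, the mitochondrial relative of *Acot1*, had 0.71 without reaching that p. Fatty acid synthesis genes lay mostly below 0, 10 of 12 (56.6% of all genes), with a median of -0.41. *Acaca*, the cytosolic acetyl-CoA carboxylase, had -0.54, while *Acacb*, whose product malonyl-CoA restrains the entry of fatty acids into mitochondria, had 0.96. Of 16 cholesterol genes 0 passed and 0 had an unadjusted p under 0.05, with a median of 0.02.

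Promoters of the oxidation genes were searched for the receptor half-site AGGTCA on both strands, and for its direct repeat AGGTCANAGGTCA, which contains it, because these lists leaned to 1 side. The windows were the 250 bases before each RefSeq gene start (build GRCr8), found for 15 of the 18 mitochondrial and 9 of the 10 peroxisomal members. The half-site was in 3 of the 15 and 3 of the 9, against 14.1% of all 33469 promoters, and the direct repeat in 0 of either list, against 0.0508%. The cell division list, which leaned to the negative side, was searched too. There the half-site was in 1 of 15 windows (6.67%) and the direct repeat in 0. The windows of the members with the largest positive difference in each oxidation list are shown. *Eci1* lies on chromosome 10, plus strand, with the half-site of the opposite strand in capitals, starting at position -94 from the gene start. The window of *Pex11a*, chromosome 1, minus strand, held no match and is in lower case.
Eci1 (chr10:13961000-13961249): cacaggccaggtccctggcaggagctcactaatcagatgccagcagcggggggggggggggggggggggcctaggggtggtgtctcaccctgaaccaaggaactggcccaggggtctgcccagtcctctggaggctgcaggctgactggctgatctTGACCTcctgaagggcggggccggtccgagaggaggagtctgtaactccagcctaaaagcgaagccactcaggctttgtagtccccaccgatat
Pex11a (chr1:143096492-143096741): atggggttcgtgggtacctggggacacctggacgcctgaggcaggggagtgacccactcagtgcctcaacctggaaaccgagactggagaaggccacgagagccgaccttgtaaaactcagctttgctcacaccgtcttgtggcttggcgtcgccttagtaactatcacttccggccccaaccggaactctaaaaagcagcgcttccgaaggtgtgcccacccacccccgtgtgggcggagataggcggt

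Cell division genes were the most even list. All 19 measured members had a negative difference (56.6% of all genes), from -1.02 (*Bub1*, a spindle checkpoint kinase) to -0.47 (the cyclin *Ccnb2*), with a median of -0.79. Of the 19, 11 had an unadjusted p under 0.05, against 7.74% of all genes. None passed after adjustment. The median change was -0.77 in ZO rats and 0.03 in ZL rats, and the median genotype gap went from 0.42 at baseline to -0.35 on placebo, so that the gap turned its sign. *Pcna*, the sliding clamp of replication, was at 8.75, 8.72, 8.88 and 8.65 in ZO placebo rats Z11, Z13, Z15 and Z16 and at 9.24, 9.25, 8.97 and 9.46 in ZO baseline rats Z1 to Z4. In ZL rats it was at 8.57, 9.10, 8.17 and 9.09 at baseline and at 9.18, 9.39, 9.05 and 8.78 on placebo, so that the ZO placebo rats lay inside the range of the ZL rats. Its difference was -0.85 (95% interval -1.48 to -0.22, adjusted p = 0.455).

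*Mcm5*, a subunit of the replicative helicase, was at 5.87, 5.84, 6.05 and 5.96 in the ZO placebo rats and fell in ZO rats by 0.85 (adjusted p = 0.0261), the only member that passed within a genotype. Its difference was -0.78 (95% interval -1.37 to -0.20). As a mean over the 19 genes, ZO placebo rats lay between 7.18 and 7.27, ZO baseline rats between 7.67 and 8.28, ZL placebo rats between 7.32 and 7.83, and ZL baseline rats between 6.74 and 7.99. The last group had the widest range, and C3 was low in *Pcna* and *Mcm5*. Without ZL baseline rat C3 the median was -0.52 and 3 members had an unadjusted p under 0.05, and this count lay between 4 and 7 without Z4, C11, Z1, C1, C15, Z13 or Z16 and reached 15 without C2 or C4. In the first 16 samples deposited all 19 had an unadjusted p under 0.05 (median -1.13) and in the last 16 samples 0 had (median -0.42). After quantile normalization the count was 8.

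**Figure D3:**
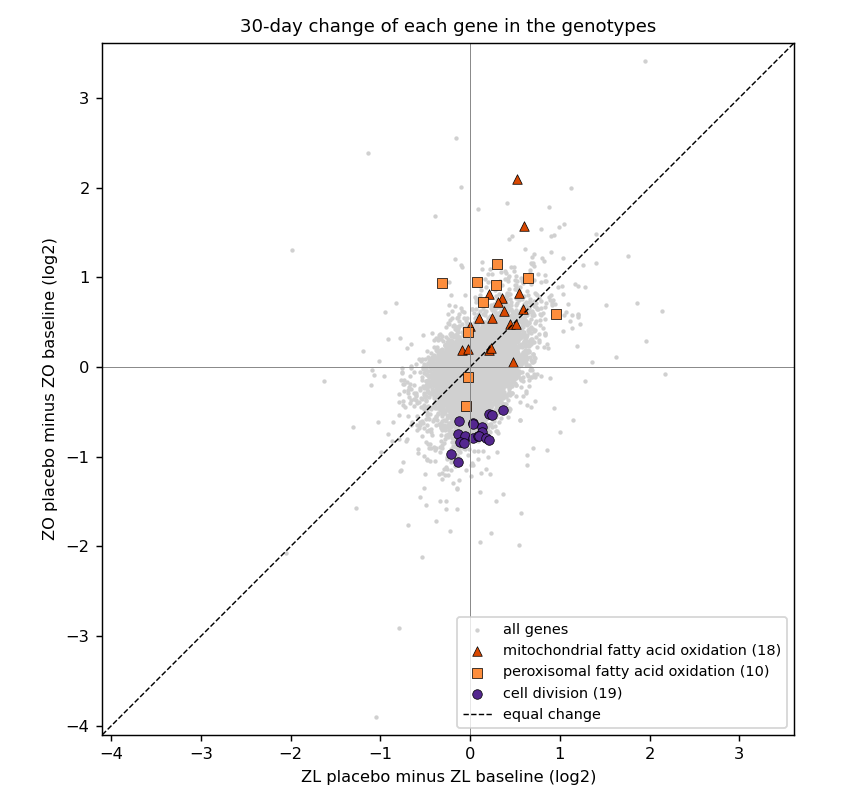
Change over 30 days in ZL rats (horizontal axis) and in ZO rats (vertical axis), both log2, for all 17245 genes (grey) and for mitochondrial oxidation (triangles), peroxisomal oxidation (squares) and cell division genes (circles). The dashed line marks equal change, and all 19 cell division genes lie below it, with a median ZO change of -0.77 and a median ZL change of 0.03.

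Defence and cytokine genes of the mucosa mostly had negative differences. Of 17 epithelial host defence genes, 15 were below 0 (median -0.29), 0 passed and 3 had an unadjusted p under 0.05 and a negative sign, against 56.6% of all genes below 0 and 7.74% at that p. The median was -0.46 without C2, -0.49 without C13 and -0.52 without C16. *Duoxa2*, a partner protein that the peroxide-generating oxidase DUOX2 needs to mature, was at 6.91, 6.38, 5.96 and 6.36 in ZO placebo rats Z11, Z13, Z15 and Z16 and at 11.88, 10.80, 9.45 and 9.09 in ZO baseline rats. In ZL rats it was at 11.47, 9.83, 8.30 and 8.18 at baseline and at 7.55, 6.50, 7.21 and 12.33 on placebo. The range within a ZL group was thus as wide as the changes, with C16 above all others, and the difference was -2.85 with an interval of -5.19 to -0.52 (adjusted p = 0.5). For *Nos2*, which makes nitric oxide in inflamed tissue, it was -1.33, with ZO baseline rat Z2 at 7.74 and the other 3 between 4.07 and 5.96, and -0.61 without Z2. Without C16 that of *Duoxa2* was -1.54. The difference of *Alpk1*, a kinase that senses bacterial sugars, was -1.22.

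Of 21 inflammatory mediators, 17 were below 0 (median -0.20), 0 passed and 4 had an unadjusted p under 0.05, all negative (56.6% and 7.74% of all genes). The direction of the median turned, at 0.15 in the first 16 samples deposited and -0.62 in the last 16, and it was -0.09 without Z2, -0.30 without C3 and -0.12 after quantile normalization. Besides *Il18* they were *Nfkb1*, a subunit of NF-kB (-0.39), the cytokine *Il10* (-0.52) and the chemokine *Cxcl9* (-0.81). *Nfkb1* lay between 7.72 and 7.86 in ZO placebo rats and between 7.81 and 8.05 in ZO baseline rats. In ZL rats it lay between 7.66 and 7.93 at baseline and between 7.998 and 8.05 on placebo. The ZO placebo rats thus overlapped both baseline groups. Of the genes that the study followed, picked by it on these samples, 5 are given here. The difference of *Adamdec1*, a metalloprotease of lamina propria phagocytes, was 0.36 (95% interval -1.41 to 2.12), with changes of 1.18 in ZO and 0.83 in ZL rats. That of *Ptgs1*, the constitutive cyclooxygenase, was -0.22 (-1.15 to 0.71), of *Slc7a11*, the cystine transporter, -0.38 (-1.35 to 0.58), of *Fkbp5*, a glucocorticoid-induced chaperone, -0.06 (-1.004 to 0.88), and of *Nfkbia*, the inhibitor of NF-kB, -0.20 (-0.61 to 0.21). None of the 5 passed the test within a genotype, and these intervals of the difference hold values of either sign. *Lepr* was not analysed here.

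Of 11 genes of leptin receptor signalling, 0 passed and 4 had an unadjusted p under 0.05 with a negative sign (7.74% of all genes). They were the kinase *Jak2* (-0.23), the phosphatase *Ptpn11* (-0.25), the transcription factor *Stat3* (-0.35) and its feedback inhibitor *Socs1* (-1.13). The list's median was -0.24. Prostaglandin and leukotriene genes were split, with 3 positive and 5 negative of 21 at an unadjusted p under 0.05 (2.56% and 7.74% of all genes) and a median of -0.30. *Alox15*, a lipoxygenase, fell in ZO rats by 1.05 (adjusted p = 9.4e-05, limma) and had a difference of -0.60. It was lower on placebo in ZL rats too, between 4.23 and 4.45 at baseline and between 3.82 and 3.95 on placebo. The ZO rats lay between 4.47 and 5.29 at baseline and between 3.78 and 3.98 on placebo, so the placebo groups overlapped. *Ptger3*, a receptor for prostaglandin E2, had a difference of 0.80.

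Of 16 amino acid and peptide transporters 14 were below 0 (median -0.35), 0 passed and 3 had an unadjusted p under 0.05, all negative (56.6% and 7.74% of all genes). The median was -0.09 in the first 16 samples deposited. Among them *Slc6a14*, a sodium- and chloride-driven carrier of neutral and cationic amino acids, had the largest difference. It was at 8.07, 8.15, 8.02 and 7.71 in ZO placebo rats Z11, Z13, Z15 and Z16 and at 8.89, 8.98, 9.01 and 8.69 in ZO baseline rats, which did not overlap. The ZL rats were at 8.22, 8.36, 7.12 and 8.62 at baseline and at 9.05, 8.61, 8.69 and 8.78 on placebo, with C3 lowest of all. Neither change passed (-0.90 and 0.70, adjusted p = 0.105 and 0.194), and the difference was -1.61 (95% interval -2.41 to -0.81, adjusted p = 0.18). Of 10 genes of sugar digestion and transport 9 were above 0 (median 0.53), 0 passed and 1 was positive at an unadjusted p under 0.05 (43.2% and 2.56% of all genes). Of the 10, 6 rose in ZO rats and 1 in ZL rats (0.777% and 0.818% of all genes). *Pck1*, the gatekeeper of gluconeogenesis, had 0.87 and *Slc2a2*, the glucose carrier GLUT2, 0.71, while the trehalose-cleaving enzyme *Treh* had -1.14. Without ZO baseline rat Z1 the median was 0.11.

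Of 22 respiratory chain subunits, 21 were below 0, with a small median of -0.16 and 3 at an unadjusted p under 0.05, among them *Uqcrc1*, a core subunit of complex III (-0.45), against 56.6% and 7.74% of all genes. Without C13 the median was -0.04 and 0 subunits had an unadjusted p under 0.05, and without C3 they were -0.09 and 0. Their median change was 0.02 in ZO rats and 0.23 in ZL rats.

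**Figure D4:**
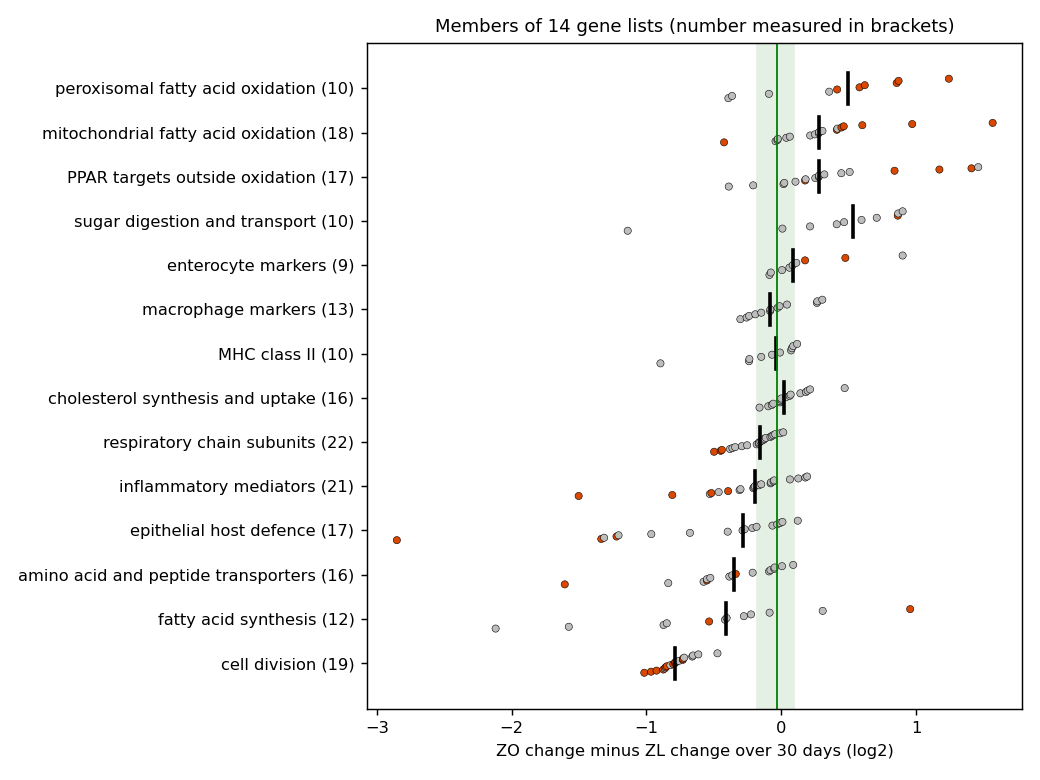
Difference (log2, horizontal axis) of each measured member of 14 gene lists, with the list's median as a black bar. Orange points have an unadjusted p under 0.05, the green line is the median over all genes (-0.03) and the green band their quartiles (-0.18 to 0.09). The cell division median lies at -0.79 and the peroxisomal oxidation median at 0.50, on opposite sides of the band.

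Markers of other cells were measured beside these lists. Of 13 macrophage markers 0 passed and 0 had an unadjusted p under 0.05 (median -0.08), and for 12 dendritic cell markers, 11 fibroblast markers and 8 smooth muscle markers the medians were -0.23, 0.01 and 0.06. The dendritic cell median was 0.08 in the first 16 samples deposited, -0.42 in the last 16, -0.14 without Z2 and -0.37 without Z3. MHC class II genes had a median change of 0.44 in each genotype, with a median difference of -0.04. Of 12 mast cell markers 11 were below 0, against 56.6% of all genes (median -0.27, and -0.16 without Z2), with *Cma1*, a chymase, at -0.41. Red blood cell markers had a median of -0.85 over 5 measured. *Hbb-b1*, a beta globin, was at 7.49, 7.55, 8.44 and 8.27 in ZO baseline rats Z1 to Z4 and between 6.11 and 7.30 in the other 12 rats of the comparison, so that the ZO baseline group stood apart. The mean over the 5 red blood cell markers was between 5.48 and 6.1 in that group and between 4.70 and 5.34 in the rest. *Adipoq*, the fat cell hormone adiponectin, had -2.53 (95% interval -4.72 to -0.33), with 8.56 in Z2 and 4.31 in Z11 as its extremes. Their part in the differences of other lists was not tested.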

How the data were processed

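Intestinal mucosa RNA of 32 male Zucker rats was hybridised to Affymetrix Rat Gene 1.1 ST arrays, 1 array per rat. Per the labels and the study's methods, the authors normalized the arrays by RMA, which gives log2 signals. The sources name Affymetrix Expression Console and, for the RMA step of the analysis, Partek Genomics Suite. The deposited score values had lost their decimal point, kept in 161 of 934848, so they were not the log2 values that the design had assumed. The point was restored after the second digit where the first pair of digits was 10 to 13, and otherwise after the first digit, which gave log2 values from 1.58 to 13.52. The number of arrays limits the precision.

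Of the probe sets, 18644 carried 1 gene symbol, 962 several and 9608 none, and 18460 gene IDs matched RefSeq. One probe set per gene was kept, that with the highest mean over all arrays. The 5 groups were fitted in limma 3.58.1 (R 4.3.3), and p-values were adjusted over 29214 probe sets, with a threshold of 0.05. Each p-value sets a contrast of group means against the spread between rats within groups, estimated over all 5 groups. The fit was tested on simulated data.

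The members and the 35 gene lists were chosen with earlier results of these data known. The text names the 10 genes on each side with the smallest p, the member of each list with the smallest p, and Adamdec1, Ptgs1, Slc7a11, Fkbp5, Nfkbia and Nfkb1. All other genes named, like probe set 10817759, were picked with their values in view. The alternatives covered scaling, filters, the samples in the model, weights, blocks, the first and last 16 samples deposited, an unmoderated regression with an interaction term (the kind of test the methods name, there for comparisons with probiotic rats), and leaving out each rat.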

Additional observations from a re-analysis of the deposited data

Results flagged for a closer look

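Among the named genes, 280 groups of 4 rats were examined for 1 rat far from the other 3, and 18 were found by Dixon's criterion (gap over range above 0.829), where chance gives about 1 in 20 groups. ZL placebo rat C13 was low in Fabp6 (8.712), Pyy (5.172), the chloride channel gene Best2 (3.832) and Chrna2 (3.699). Without C13 the difference of Fabp6 was -0.076 in place of 1.06.

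ZL baseline rat C3 was low in Ndrg3 (9.459) and Il18 (6.448) and high in Fkbp5 (9.616), and ZL baseline rat C4 was high in the T cell kinase gene Zap70 (5.603). ZL placebo rat C16 was high in Gpx2 (11.875) and low in the plasma cell factor gene Xbp1 (11.643). ZO baseline rat Z2 was high in Adamdec1 (9.849), and Z4 was low in Pde12 (7.067).

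Among ZO placebo rats, Z11 was high in Gpx2 (10.696) and low in Rnf227 (2.974) and in Alas2, the first enzyme of heme synthesis in red cells (4.386). Z16 was low in Chrna2 (5.745) and high in Cma1 (3.575), and Z15 was low in Uqcrc1 (10.64).

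Probe set 10817759 differed between the genotypes by the interaction test, with a difference of 3.89. It was also high in the ZO probiotic rats, which enter the comparison only through the estimate of the spread. The lowest of those 16 rats was at 10.92, above the highest of the 12 rats of the other groups.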

How the results depend on the processing

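Over the named genes, 2117 combinations of gene and alternative kept the direction and the side of the threshold, 24 (10 genes) newly passed, 1 no longer passed and 22 (11 genes) turned. The 1 was probe set 10817759 in the first 16 samples deposited. Its call held in the other alternatives that tested it. The count of 1 probe set became 4 (3 lower) with 1 probe set per gene, 3 (3 higher) in a model of only the 16 arrays, and 17 (2 higher and 15 lower) in the first 16 samples. Unmoderated regression with an interaction term, on the 16 arrays and at an unadjusted p under 0.05, gave 2107. Leaving out 1 rat gave 1 to 6 (1 to 3 higher and 0 to 4 lower). The 398 probe sets of the ZO change became 149 with 16 arrays and 172 to 511 without 1 rat. The 266 of the ZL change became 66 after quantile normalization, 85 with centred arrays, 1 with 16 arrays and 32 to 1281 without 1 rat. The cause was not tested.

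With the rat number as a random replicate block (consensus correlation 0.064) 6 probe sets passed, 2 higher and 4 lower, and with a fixed block 1. The numbers do not pair the rats, since 2 of 8 shared numbers correlated best with their own (r from -0.037 to 0.232).

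None of the genes that turned passed in either direction. In the first 16 samples these were Ciita (0.036), Itgam (0.25), Ptgs1 (0.42), Slc7a11 (0.040), Fkbp5 (0.32), Decr1 (-0.011), Slc27a2 (-0.44) and Fabp6 (-0.13), and in the last 16 samples Pdpn (-0.19), Adamdec1 (-0.0105) and Alpi (-0.066). Leaving out 1 rat gave ranges of -0.13 to 0.83 for Adamdec1, -0.45 to 0.058 for Ptgs1, -0.27 to 0.071 for Fkbp5, -0.076 to 1.46 for Fabp6 and -0.093 to 0.23 for Alpi.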

Other observations

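Genes of ion and water transport held the second largest difference of the lists. Car1, a carbonic anhydrase of the surface epithelium, was at 9.15, 8.18, 7.70 and 7.41 in ZO placebo rats Z11, Z13, Z15 and Z16 and at 7.50, 6.103, 6.001 and 7.63 in ZO baseline rats. In ZL rats it was at 10.74, 5.64, 6.68 and 8.89 at baseline and at 6.34, 5.86, 8.37 and 3.45 on placebo. All groups overlapped, the ZL baseline rats covered the range of the ZO rats, and the difference was 3.29 (95% interval 1.00 to 5.57, adjusted p = 0.419 by limma). Of the 24 genes of the list 0 passed, 3 were positive and 2 negative at an unadjusted p under 0.05 (2.56% and 7.74% of all genes), and the median was 0.07. Cftr, the chloride channel of crypt cells, had -0.81.

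Of 17 interferon-stimulated genes 0 passed and 0 had an unadjusted p under 0.05 (median -0.03). For 14 clock genes the median was 0.04, for 12 genes of fat absorption 0.08, for 17 of carotenoid and retinoid metabolism -0.02 and for 18 steroid dehydrogenases and aldo-keto reductases 0.10. The medians of 8 goblet cell, 12 enteroendocrine and 8 ileal markers were 0.07, 0.15 and 0.25. Without C13 the ileal median was -0.012 and the enteroendocrine one 0.026, and the ileal median was 0.43 to 0.51 without C4, C11, C15 or C16. The enteroendocrine median was 0.055 without C2 and 0.070 without Z1, and the goblet cell median 0.048 without C2. Those of 16 T cell and 10 B and plasma cell markers were -0.15 and -0.14, and that of 9 adipocyte markers was -0.29 (-0.13 without Z2). The median of 21 genes of the study, chosen by it on these samples, was -0.19, with 4 negative at an unadjusted p under 0.05 (7.74% of all genes).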
